A study of Mus musculus with 3 samples.

Results

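The clustered protocadherin genes lie in a row on mouse chromosome 18, and the CpGs examined were those in the 950000 bp that end at position 38000000 (genome build mm9) that were covered by more than 10 reads. They numbered 859 of 970329 CpGs in wild type (WT), 854 of 814188 in Dnmt3a KO and 470 of 431923 in Dnmt TKO. Of these, 558 were shared by WT and Dnmt3a KO, and 251 were covered in all 3 libraries. Each position was read as methylated reads divided by all reads, and the level of a region is the mean over its CpGs.

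The libraries are reduced-representation bisulfite sequencing (RRBS) of mouse embryonic stem (ES) cells, a method that reads bisulfite-converted ends of MspI fragments and therefore samples only DNA near CCGG sites. WT and Dnmt3a KO cells are of mixed 129-C57Bl/6 background, and Dnmt TKO cells, which lack Dnmt1, Dnmt3a and Dnmt3b and with them DNA methylation, are of strain J1. WT cells grew on feeder cells or on gelatine and both mutants on gelatine, all in serum medium with LIF. Dnmt3a was deleted in both of its isoforms with CRISPR/Cas9, and how many clones went into the RRBS library is not given in the sources used here. Each genotype has 1 library, so no difference below has a replicate check, and genotype cannot be told apart from culture surface (WT against mutants) or from strain (TKO against the others). Intervals given below are 95% intervals from the number of reads alone. They count neighbouring CpGs of a read, and any PCR copies left, as independent, which makes them too narrow, and they hold no variation between cultures.

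Clustered protocadherins are cadherin-like adhesion proteins of the cell surface, best known for giving neurons individual identities. In the alpha and gamma subclusters each isoform has its own large variable exon, preceded by its own promoter, which encodes the extracellular cadherin repeats and the membrane span and is spliced to constant exons shared by the whole subcluster, whereas the beta genes are single exons. Promoter choice involves CTCF and cohesin, and methylation of a variable exon and its promoter is associated with silencing of that isoform. The last exons of alpha and gamma, called C-type, differ from the others in sequence and regulation.

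The interval holds 58 variable exons, of which 14 belong to alpha, 22 to beta and 22 to gamma. GENCODE vM1 annotates 41 of them. The other 17, 4 in alpha and 13 in gamma, were located as open reading frames of at least 2000 bp, so that their start is a start codon and not a transcription start. Alpha spans chr18:37089939-37347311, beta chr18:37424652-37681073 and gamma, in the annotation, chr18:37833989-38001527. The exons of Pcdhga1 and Pcdhga2 lie before that annotated gamma start and are counted with gamma where single exons are described. CpG density differed between subclusters, with a median of 4.72 CpGs per 100 bp in alpha exons, 3.86 in gamma exons and 2.18 in beta exons. The beta subcluster, whose exons are poorest in CpGs and have a median of 4 MspI sites each against 5 in alpha and 7.5 in gamma, contributed 34 of the shared CpGs, alpha 138 and gamma 326.

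Coverage in the interval fell from WT (median 25 reads per CpG) to Dnmt3a KO (15 reads) and Dnmt TKO (13 reads), with 30180, 16015 and 6527 CpG reads in total. At least 1 CpG was read in 36, 43 and 45 of the 58 exons, so the library with the lowest coverage touched the most exons. The libraries also read different parts of the fragments. Of the CpGs examined, 0.116% in WT, 5.62% in Dnmt3a KO and 10.4% in Dnmt TKO lay 150 bp or more from an MspI site. Means over each library's own CpGs therefore describe partly different sites, and comparisons below use shared CpGs. Variable exons resemble each other, and around 98 of the 558 shared CpGs the 41 bases centred on the CpG, after conversion of C to T, occur more than once in the interval, so that a read has to reach beyond this window to be placed.

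Over its own CpGs, mean methylation of the interval was 24.4% in WT, 10.5% in Dnmt3a KO and 0.0262% in Dnmt TKO. All CpGs of the genome covered to the same depth had means of 28.4%, 17.0% and 0.0911%. At the 251 protocadherin CpGs read in all 3 libraries the means were 16.4%, 7.97% and 0.0491%. The order of the libraries was the same on both sets of CpGs. In Dnmt TKO only 2 of 6527 reads were methylated (0.0306%, Wilson interval 0.00840 to 0.112%), 1 of 25 reads at a CpG between beta and gamma and 1 of 12 reads in the exon of Pcdhga5. The remaining 468 CpGs carried none. Against WT, the 266 shared CpGs fell from 17.8% to 0.0464%, a change of -17.8 percentage points (interval -18.7 to -16.8).

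The loss of DNMT3A, one of the de novo methyltransferases, was compared next. At the 558 CpGs shared by WT and Dnmt3a KO, the mean was 21.6% in WT and 12.1% in Dnmt3a KO, a change of -9.47 percentage points (interval -10.3 to -8.68). Over the 631561 shared CpGs of the genome the means were 17.8% and 13.4%, a change of -4.41, and over the rest of chromosome 18 they were 16.4% and 12.5%, a change of -3.87. The protocadherin difference thus lay outside the counting interval of both backgrounds, and the WT mean of the interval was also higher than theirs.

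By subcluster, alpha had a mean of 24.1% in WT and 18.0% in Dnmt3a KO, a change of -6.12 percentage points (interval -7.56 to -4.68, 138 CpGs). Beta had 18.3% and 7.35%, a change of -11.0 (-14.5 to -7.45, 34 CpGs). Gamma had 20.1% and 8.80%, a change of -11.3 (-12.4 to -10.2, 326 CpGs). These sets hold different features. Alpha includes 21 CpGs outside exons and promoters (78.5% in WT and 77.3% in Dnmt3a KO), whereas all beta CpGs lie in variable exons. In annotated variable exons alone the change was -8.22 in alpha, -11.0 in beta and -11.3 in gamma. The order of the subclusters is not fixed by these data. When methylated reads were pooled over CpGs and divided by all reads, the change was -12.0 in alpha, -12.6 in beta and -10.7 in gamma, and with more than 20 reads per CpG it was -8.75, -5.39 and -6.93. The beta value also rests on few exons, and without CpGs in repeated windows it was -5.64 over 20 CpGs.

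Variable exons held most of the shared CpGs and were lower in Dnmt3a KO. The 320 CpGs of annotated variable exons had a mean of 18.9% in WT and 8.59% in Dnmt3a KO, a change of -10.3 percentage points (interval -11.3 to -9.27). With the open reading frames included, 471 CpGs in 32 exons gave 18.9% and 8.44%, a change of -10.5. Promoters, taken as the 500 bp before an annotated exon start, were almost unmethylated in both libraries, at 0.0556% in WT and 0.265% in Dnmt3a KO (difference 0.209, interval -1.72 to 2.14). These values come from 18 CpGs in 3 C-type promoters, 15 of them in that of Pcdhac1, so they do not describe the promoters of the other isoforms. Of the constant exons, which encode the shared cytoplasmic end of the proteins, only the first gamma constant exon (chr18:37984675-37984733) was read. Its 3 CpGs had no methylated read in either library, which allows a share of up to 2.56% in WT and 6.67% in Dnmt3a KO.

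**Figure D1:**
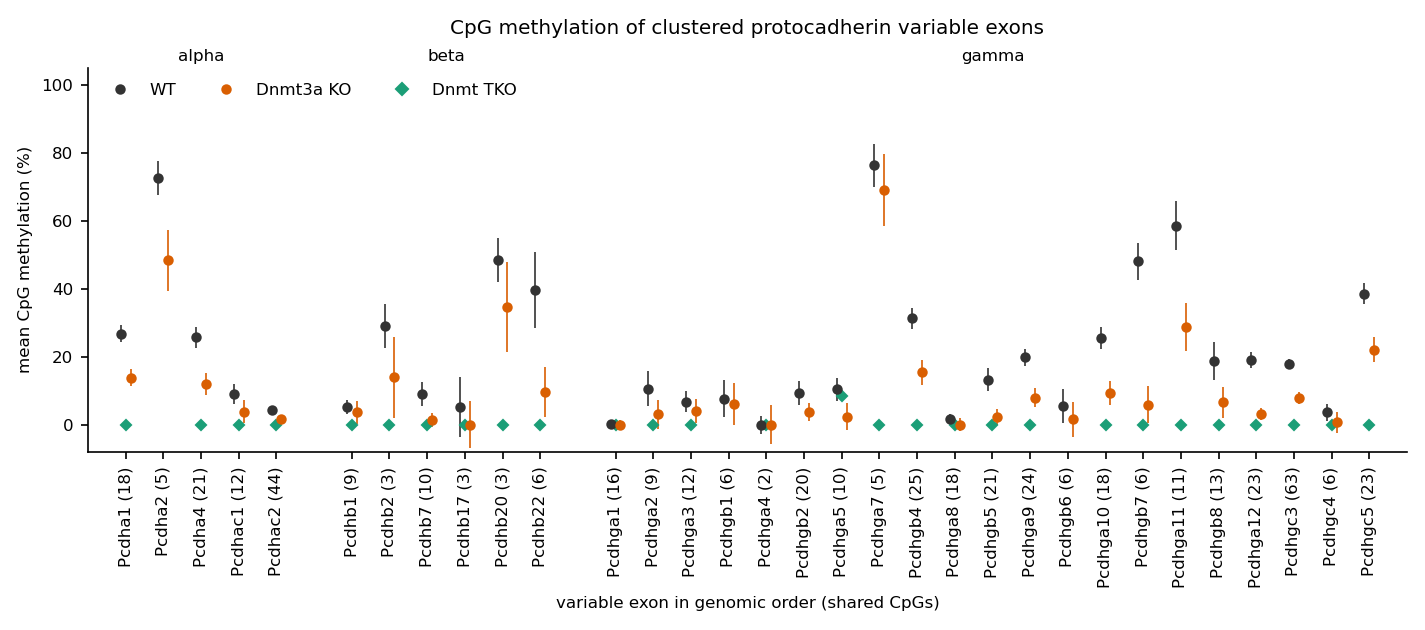
Mean CpG methylation (percent, vertical axis) of the 32 variable exons with shared CpGs, in genomic order, with the number of CpGs shared by WT and Dnmt3a KO in parentheses. Circles are WT and Dnmt3a KO over shared CpGs with 95% counting intervals (normal approximation, which can pass below 0), and diamonds are Dnmt TKO over its own CpGs. WT levels range from near 0 to 76.3% and lie above the Dnmt3a KO level in each of the 28 exons with at least 5 shared CpGs, while Dnmt TKO is at 0 except for 1 methylated read in Pcdhga5.

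Among the 28 variable exons with at least 5 shared CpGs (5 alpha, 3 beta and 20 gamma), WT levels ranged from 0.245% to 76.3% with a median of 15.5%, and Dnmt3a KO levels from 0 to 69.0% with a median of 4.97%. All 28 means were lower in Dnmt3a KO, and for 20 the interval of the difference lay below 0. In 14 exons the mean was lower by at least 10 percentage points. The median difference was -9.11 percentage points, but -4.55 over the 18 exons that keep CpGs with more than 20 reads, the study's minimum for RRBS. At that minimum the decrease was -9.27 in Pcdhga10 (3 CpGs, interval -19.0 to 0.439), -3.66 in Pcdhga9 (4 CpGs, -7.83 to 0.515) and -6.03 in Pcdhgc3 (21 CpGs, -7.81 to -4.25), and Pcdhac1 had no decrease (0.00618 over 6 CpGs). Exons with more methylation in WT also had more in Dnmt3a KO (Pearson's r = 0.888, Spearman's rho = 0.875, n = 28 exons of the same pair of libraries, some with similar sequences). The WT level had little relation to the CpG density of the exon (r = 0.107, rho = 0.213 over the same exons). This comparison is limited, since density was taken over the whole exon and the level over shared CpGs in differing parts of it.

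Among the 28 exons with at least 5 shared CpGs, the 5 highest WT levels were in Pcdhga7, Pcdha2, Pcdhga11, Pcdhgb7 and Pcdhb22. The order compares different parts of the exons, since the shared CpGs of Pcdhga7, Pcdha2 and Pcdhb22 all lay beyond 1000 bp from the exon start. It also depends on the CpGs used. Over all CpGs read in WT, Pcdhb2 had 51.7% (12 CpGs) and Pcdhb22 32.0% (8 CpGs). Pcdhga7 (chr18:37874596-37877037, 5 CpGs) had 76.3% in WT and 69.0% in Dnmt3a KO, a change of -7.28 that the interval does not separate from 0 (-19.6 to 5.01). Pcdha2 (chr18:37098972-37101359, 5 CpGs) had 72.6% and 48.3%, a change of -24.2 (-34.5 to -14.0). Pcdhga11 (chr18:37915427-37918021, 11 CpGs) had 58.6% and 28.9%, a change of -29.7 (-39.8 to -19.7). Pcdhga7, the exon with the highest WT level, was thus not among those with the largest decreases. In Dnmt TKO the exon of Pcdhga11 had 0 methylated of 300 reads, which allows up to 1.00%, and that of Pcdhga7 0 of 11 reads, which allows up to 27.3%. No CpG of Pcdha2 had more than 10 reads there.

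The largest decrease was in Pcdhgb7 (chr18:37911433-37913994), a gamma isoform of the B type, with 48.0% in WT and 5.90% in Dnmt3a KO over 6 CpGs (difference -42.1, interval -49.8 to -34.5). Single CpGs of this exon ranged from 37.9% to 56.9% in WT and from 0 to 15.4% in Dnmt3a KO. The exon was singled out for its decrease, and its CpGs are not replicates. In Dnmt TKO 0 of 205 reads were methylated. The next largest decrease in gamma after Pcdhga11 was in Pcdhgc5, from 38.5% to 22.1% (-16.5, interval -21.3 to -11.6, 23 CpGs), followed by Pcdhga10, from 25.5% to 9.32% (-16.2, interval -21.0 to -11.4, 18 CpGs). The reads of Pcdhga10 cannot be separated from those of Gm16882, an annotated antisense RNA that overlaps its exon.

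In alpha, Pcdha4 (chr18:37112420-37114804, 21 CpGs) had 25.6% in WT and 11.8% in Dnmt3a KO, a change of -13.8 (interval -18.3 to -9.32). Pcdha1 (chr18:37089939-37092326, 18 CpGs), the first isoform of the cluster, had 26.8% and 13.8%, a change of -13.0 (-16.6 to -9.36). In Dnmt TKO 0 of 129 reads of Pcdha4 and 0 of 230 reads of Pcdha1 were methylated. In beta, the decrease was largest in Pcdhb22 (chr18:37678007-37681073), from 39.6% to 9.70% over 6 CpGs (-29.9, interval -43.3 to -16.6). All 6 of these CpGs lie in repeated windows, as do 4 of the 5 in Pcdha2. Pcdhb7 had 8.98% and 1.37% over 10 CpGs (-7.61, interval -11.8 to -3.44), and Pcdhb1, the first beta gene, 5.22% and 3.58% over 9 CpGs (-1.64, interval -5.72 to 2.44).

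The smallest decreases were in exons whose shared CpGs had little methylation in WT. Pcdhga1 (chr18:37821599-37824031) had 0.245% in WT and no methylated read in Dnmt3a KO at 16 CpGs, Pcdhga8 had 1.55% and 0% at 18 CpGs, and Pcdhgb1 had 7.69% and 6.06% at 6 CpGs. For none of these 3 did the interval separate the difference from 0. All shared CpGs of Pcdhga1 and Pcdhga8 lay in the first 500 bp of the exon, so their levels do not describe the whole exon. Over all 24 CpGs read in WT, Pcdhga8 had 11.7%. Without CpGs in repeated windows, 24 exons kept at least 5 shared CpGs and 23 of them were lower in Dnmt3a KO, the exception being Pcdhga3 (difference 1.78, interval -4.26 to 7.83, 7 CpGs).

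**Figure D2:**
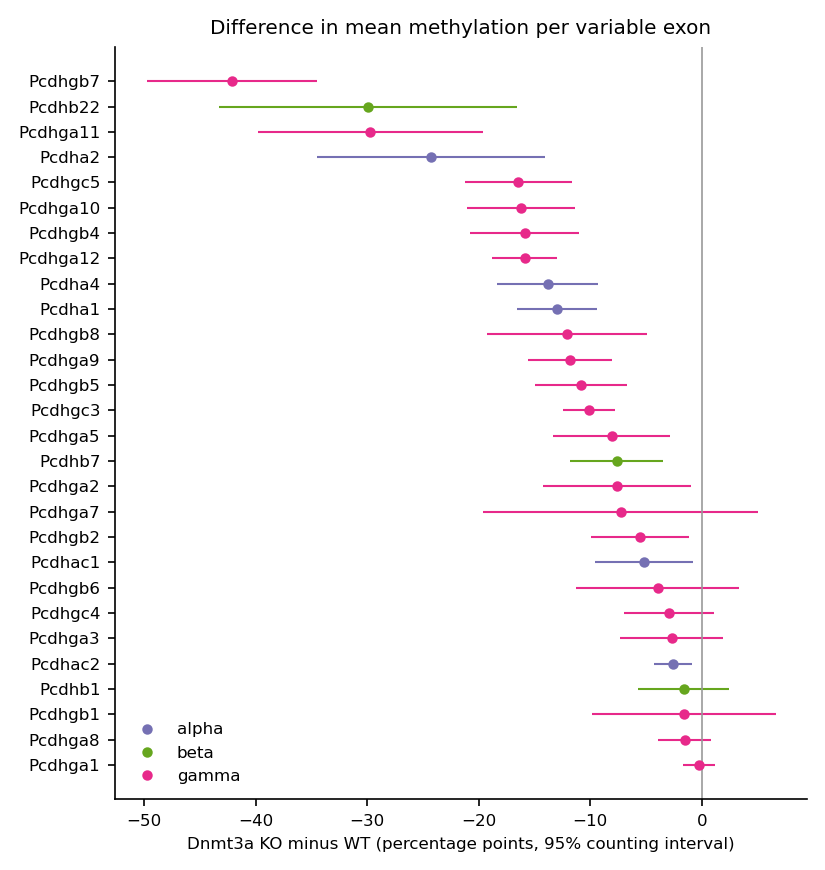
Difference in mean methylation (Dnmt3a KO minus WT, percentage points, horizontal axis) for the 28 variable exons with at least 5 shared CpGs, sorted by size and coloured by subcluster. Points are means over shared CpGs and bars 95% counting intervals. The values run from -42.1 in Pcdhgb7 to -0.245 in Pcdhga1, and 20 of the intervals lie below 0.

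The 5 C-type exons covered a wide range. Pcdhac1 (chr18:37249790-37252225) had 9.05% in WT and 3.86% in Dnmt3a KO over 12 CpGs (-5.19, interval -9.56 to -0.815). Pcdhac2 (chr18:37303623-37306184), known from the spacing of serotonergic axons, had 4.27% and 1.65% over 44 CpGs (-2.61, interval -4.32 to -0.903). Both means were lower in WT than those of Pcdha1, Pcdha2 and Pcdha4, but different parts of these exons were read. All shared CpGs of Pcdhac1 lay in the first 500 bp of its exon, and none of Pcdha2 or Pcdha4 did. In its first 500 bp Pcdha1 had 4.54% in WT, below Pcdhac1. Pcdhac2 had 0.553% in WT in its first 500 bp and 10.8% beyond, against 4.54% and 44.6% in Pcdha1. The CpGs beyond 500 bp lay between 500 and 1000 bp in Pcdhac2 and beyond 2000 bp in Pcdha1. The values of 10.8% and 44.6% thus also describe different parts of the exons. Pcdhgc3 (chr18:37966064-37968631), which acts in dendrite branching of cortical neurons, was the most densely read exon and had 17.9% and 7.76% over 63 CpGs (-10.1, interval -12.5 to -7.80). Pcdhgc4 (chr18:37974733-37977637), the isoform required for survival of many neurons, had 3.64% and 0.694% over 6 CpGs (-2.95, interval -6.97 to 1.07). Pcdhgc5 (chr18:37979200-37981788), the last variable exon, had the values given above and was the most methylated of the 5 in both libraries. No methylated read was found in Dnmt TKO in any C-type exon, among 91 reads in Pcdhac1, 351 in Pcdhac2, 535 in Pcdhgc3, 67 in Pcdhgc4 and 128 in Pcdhgc5. Among promoters with at least 3 shared CpGs, that of Pcdhac1 had 0.0667% in WT and 0.318% in Dnmt3a KO (15 CpGs), and the 500 bp before the open reading frame of Pcdhgb1 had 0.667% and 0% (3 CpGs).

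Methylation was not even along the exons. In the 500 bp before the exon start the mean was 0.125% in WT and 0.199% in Dnmt3a KO (24 CpGs at 6 exons), and in the first 500 bp of the exon 4.61% and 2.14% (177 CpGs). It was 18.9% and 9.15% from 500 to 1000 bp (77 CpGs), 36.3% and 15.3% from 1000 to 1500 bp (60 CpGs), 22.3% and 8.51% from 1500 to 2000 bp (96 CpGs), and 37.9% and 19.0% from 2000 to 2600 bp (61 CpGs). The difference between libraries was -2.48 percentage points in the first 500 bp and between -21.1 and -9.71 in the bins beyond. These bins hold different exons, so the comparison was repeated within exons. Of the 10 exons with at least 3 shared CpGs on each side of 500 bp, 9 had a higher mean beyond 500 bp, in WT and in Dnmt3a KO alike. The medians over the 10 exons were 2.88% in the first 500 bp and 21.8% beyond in WT, and 0.744% and 11.3% in Dnmt3a KO. In Pcdha1, for example, the means were 4.54% and 44.6% in WT and 1.41% and 23.7% in Dnmt3a KO. The exception was Pcdhgc5, whose first 500 bp had 65.2% in WT and 40.5% in Dnmt3a KO, against 31.2% and 17.0% in the rest of the exon. In Pcdhgb1 and Pcdhgb2 all shared CpGs beyond 500 bp lie in repeated windows, as do most of those in the first 500 bp of Pcdha1.

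**Figure D3:**
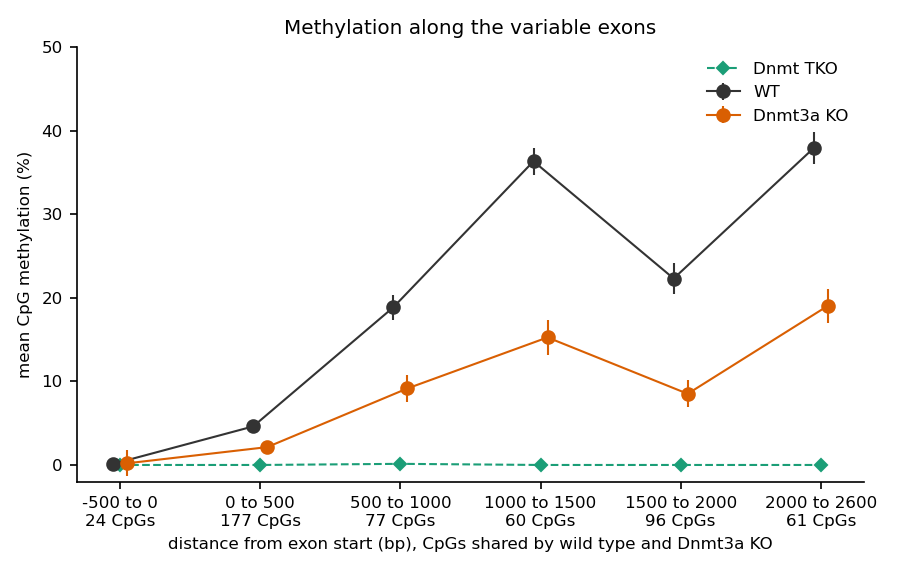
Mean CpG methylation (percent, vertical axis) by distance from the exon start (bp, horizontal axis) over all variable exons, for WT and Dnmt3a KO at shared CpGs with 95% counting intervals, and for Dnmt TKO. The level is near 0 before the exon and under 5% in its first 500 bp in each library. Further in, WT and Dnmt3a KO are higher but do not rise steadily. From 1000 bp on, WT has 36.3%, 22.3% and 37.9% and Dnmt3a KO 15.3%, 8.51% and 19.0%, in bins that hold different exons.

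For single CpGs, Fisher's exact test on methylated and unmethylated reads was run over all 631561 shared CpGs of the genome with Benjamini-Hochberg adjustment, and a CpG was called at an adjusted p (q) under 0.05 and a change of at least 20 percentage points. With 1 library per genotype it tests a difference between 2 libraries only. Of the 558 protocadherin CpGs, 19 were called lower in Dnmt3a KO (3.41%, against 1.64% of the genome) and 0 higher (0.0304% of the genome). At an unadjusted p under 0.05, 72 protocadherin CpGs (12.9%, against 6.998% of the genome) were lower and 0 were higher (0.156% of the genome). Alpha had 5 calls, gamma 12, beta 0 of 34 CpGs, and 2 lay outside the annotated subclusters. No call was made at the 364 CpGs under 20% in WT, where a decrease of 20 percentage points cannot occur. At the 101 CpGs with at least 50% in WT, 13 were called lower (12.9%, against 6.87% of such CpGs in the genome).

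The lowest q belonged to a CpG in the exon of Pcdha4 at position 37114560, with 31 of 77 reads methylated in WT and 1 of 41 in Dnmt3a KO (q = 0.000771, Fisher's exact test adjusted by Benjamini-Hochberg). It was followed by a CpG between beta and gamma at position 37724902, with 40 of 51 and 3 of 19 reads (q = 0.000849), and by one in Pcdha1 at position 37092038, with 60 of 110 and 12 of 64 reads (q = 0.000943). At position 37724908, 6 bases from the second of these, 38 of 51 and 3 of 21 reads were methylated (q = 0.00101). In Pcdhgb7, at position 37912715, 30 of 57 and 0 of 19 reads were methylated (q = 0.00324). The calls in exons were shared among 8 of them. Pcdha1, Pcdhga9, Pcdhgb7 and Pcdhgc3 held 3 each, Pcdhga12 held 2, and Pcdha2, Pcdha4 and Pcdhgc5 held 1 each.

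**Figure D4:**
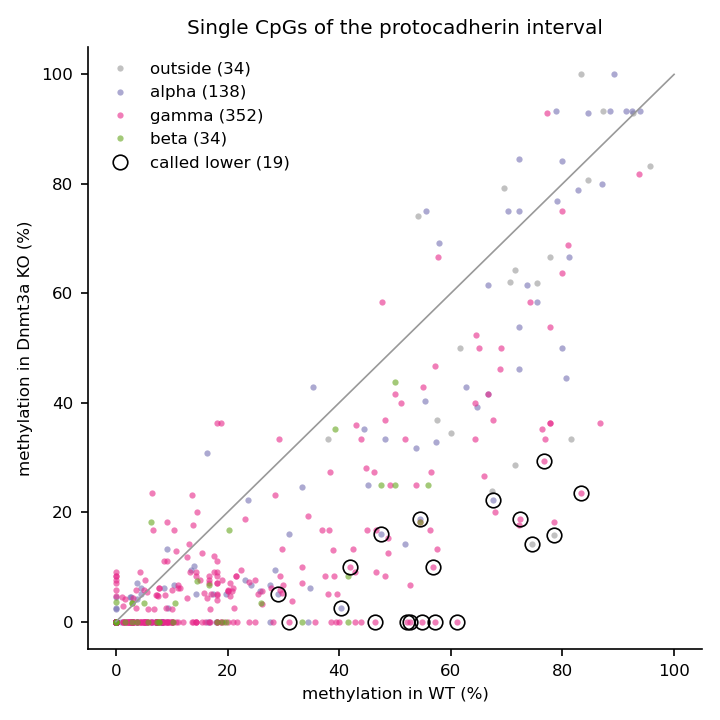
Methylation of the 558 shared CpGs in WT (percent, horizontal axis) and Dnmt3a KO (percent, vertical axis), coloured by subcluster, with the exons of Pcdhga1 and Pcdhga2 counted with gamma. Circled points are the 19 CpGs called lower in Dnmt3a KO, the line marks equal levels, and many gamma CpGs between 10% and 60% in WT lie at or near 0 in Dnmt3a KO.

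The 60 shared CpGs outside the variable exons, constant exons and promoters fell into 10 short loci and did not follow a single pattern. The 4 loci before and within alpha, 3 of them in introns of the transcript unit and 1 before Pcdha1, had a mean of 79.5% in both libraries over 27 CpGs (difference 0.0180, interval -4.63 to 4.67). The largest of them, 14 CpGs between Pcdha7 and Pcdha8, had 77.6% in WT and 75.2% in Dnmt3a KO, and 11 of its CpGs lie in repeated windows. Without these, the 4 loci had 80.1% and 79.5% over 16 CpGs (difference -0.569, interval -6.22 to 5.08). Alpha exon CpGs with at least 50% in WT had 63.6% and 38.5% (12 CpGs, difference -25.1, interval -31.2 to -19.1). These CpGs were chosen and measured on the same WT reads, which by itself makes the decrease larger, and their WT level was below that of the loci. Between beta and gamma, a locus of 6 CpGs (chr18:37724902-37724971) had 74.8% in WT and 29.6% in Dnmt3a KO (-45.2, interval -55.3 to -35.0), and one of 8 CpGs (chr18:37735649-37735780) had 63.3% and 53.4% (-9.91, interval -18.3 to -1.48), with 3 of its CpGs in repeated windows. A further locus between beta and gamma, at the start of the gene 3222401L13Rik (8 CpGs), and one between alpha and beta (6 CpGs) had no methylated read in WT or Dnmt3a KO. The other two loci follow the variable exon of Pcdhgc5, within a longer annotated form of that exon, and had 12.5% and 6.60% at 3 CpGs (difference -5.94, interval -15.1 to 3.24) and 0% and 3.57% at 2 CpGs (3.57, interval -7.44 to 14.6).

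Since a CpG cannot lose more than its WT level, exon CpGs were compared with other CpGs in the same range of WT levels. CpGs were grouped on a random part of the WT reads and measured on the remaining reads, so that the grouping does not by itself lower the difference. At 20 to 50%, 93 exon CpGs had a change of -19.9 percentage points. The 3234 CpGs in other exons of at least 2000 bp (any protein-coding gene, untranslated regions included) had -15.8. This makes the protocadherin difference -4.10 beyond theirs (interval -6.98 to -1.23). At 50 to 80%, 51 exon CpGs had -27.6 and the other exons -19.6, which is -8.03 beyond (interval -12.6 to -3.46). The groups are not matched exactly, and in the reads used for measuring, the exon CpGs of this group had a lower WT mean (58.4%) than the other exons (67.6%). At 50% or more, 64 exon CpGs had -27.2 and the other exons -16.5, which is -10.7 beyond (interval -14.8 to -6.53). Here too the WT mean of the exon CpGs was lower (60.6% against 73.65%). The remaining CpGs of the genome had -15.2 at that level. When grouped on all WT reads, the 61 exon CpGs at 50% or more came from 15 exons and had 65.1% in WT and 35.1% in Dnmt3a KO. Without the CpGs in repeated windows the difference was -29.2 in place of -30.0.

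**Figure D5:**
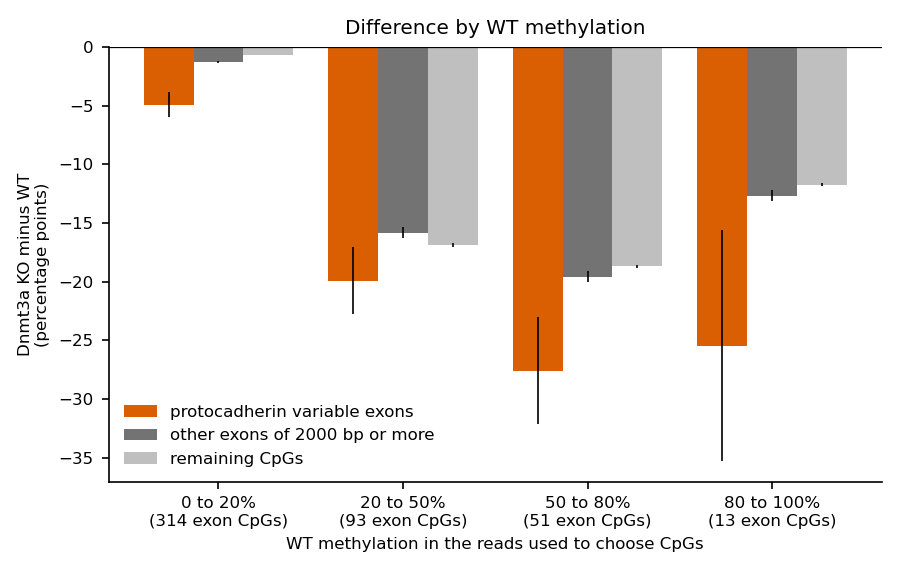
Dnmt3a KO minus WT (percentage points, vertical axis) for CpGs grouped by their level in a random part of the WT reads and measured on the rest, with 95% counting intervals. In each group the bar of the protocadherin variable exons reaches lower than that of other exons of at least 2000 bp and of the remaining CpGs, for example -27.6 against -19.6 and -18.7 at 50 to 80%. WT means on the measured reads differ within groups. Protocadherin exons had 7.36% against 2.53% in the other exons at 0 to 20%, and 69.2% (13 CpGs) against 81.1% at 80 to 100%.

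Other protocadherins and the factors that act on the clusters were read from fixed gene lists. Of 12 non-clustered protocadherins, single genes elsewhere in the genome that encode related adhesion proteins, 9 had shared CpGs in exons, with a mean of 7.01% in WT and 5.08% in Dnmt3a KO over 445 CpGs. Called lower were 4 of these CpGs (0.899%, against 1.64% of the genome). The exon means of 4 of the 9 genes were lower with an interval below 0, among them Pcdh1 (32.1% and 23.8%) and Pcdh12 (54.6% and 33.4%). Of 24 regulators, which include Ctcf, the cohesin subunits, Smchd1 and the DNA methyltransferases, 22 had shared CpGs in exons (22.4% and 18.7% over 478 CpGs). Of these CpGs 6 were called lower (1.26%, against 1.64% of the genome). Around the starts of 19 of these genes the mean was 0.0820% in WT and 0.0350% in Dnmt3a KO over 707 CpGs. None of them was called lower (1.64% of the genome), and levels this low leave little room for a decrease of 20 percentage points.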

How the data were processed

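Per the labels and the study's methods, genomic DNA was cut with MspI, size-selected fragments were excised and converted with bisulfite, and the authors deposited, for each CpG, read counts (all reads and methylated reads) and their fraction. Reads were aligned to mm9 with QuasR, the submitters' processing notes name Trim Galore and Bowtie, and CpGs over known SNPs were removed. The study's methods state for sequencing reads in general that only uniquely mapping reads were used and that identical reads from PCR were removed, without naming RRBS. Versions and the pooling of size ranges are not given in the sources used here. The smallest deposited count of all reads was 10, and CpGs with more than 10 were kept, whereas the study's own minimum for RRBS, more than 20, is given as an alternative.

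Coordinates were joined to the mm9 (NCBIM37) sequence and GENCODE vM1, in which each CpG of the interval was a CG. GENCODE vM1 lists alpha and gamma isoforms under single gene names, so isoform names came from RefSeq by the distance to beta genes named in both (tolerance 300 bp). The level of a region is the mean over CpGs, with a 95% interval from the binomial variance of each CpG. Single shares have Wilson intervals, and a count of 0 allows 3 counts of the total. Fisher's exact test was run over all shared CpGs with Benjamini-Hochberg adjustment (q under 0.05, at least 20 percentage points) and was tested on simulated counts. Python 3.11.15 with numpy 2.4.6, pandas 2.3.3, scipy 1.17.1 and pysam 0.24.0 was used.

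Exons named were those with at least 5 shared CpGs (promoters 3) with the 4 largest and 3 smallest decreases per subcluster, the 5 highest and 5 lowest WT levels, and each C-type exon. CpGs named were the 5 with the lowest q. Exons given as further examples were chosen after their values were seen. Members, gene lists and comparisons were chosen with earlier results of these data known. Open reading frames, repeated windows, profiles along exons and loci outside exons were added after seeing the data. Sequence of the members is not shown.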

Additional observations from a re-analysis of the deposited data

How the results depend on the processing

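The decrease in Dnmt3a KO over the interval kept its direction under each setting tried. It was -6.98 percentage points with more than 20 reads per CpG (189 CpGs), -10.8 with methylated reads divided by all reads, -21.5 at CpGs of at least 50% in WT and -19.9 where these were chosen on a random part of the WT reads. By subcluster, alpha had -8.75 with more than 20 reads and -12.0 with all reads pooled, gamma had -6.93 with more than 20 reads, and beta had -5.39 with more than 20 reads and -5.64 without repeated windows. Variable exons had -8.10 with more than 20 reads. Dnmt TKO minus WT was -14.3 with more than 20 reads and -15.1 with reads pooled. The level of the interval was 22.7% in WT and 7.91% in Dnmt3a KO with more than 20 reads, and 22.6% and 9.35% with reads pooled. More than 20 reads is the study's own minimum for RRBS. The median over exons was -4.55 with more than 20 reads (18 exons) and -7.59 with reads pooled. With more than 20 reads, Pcdhac1 turned from a decrease to 0.00618 percentage points over 6 CpGs, Pcdhga8 was at 0, Pcdhga2, Pcdhga9 and Pcdhga10 had intervals that came to include 0, Pcdha4 moved to -22.6, Pcdhga12 to -10.1 and Pcdhgc3 to -6.03. With reads pooled, Pcdhgb1 had 0.660 (interval -5.76 to 7.08), Pcdhac1 -3.27 (-6.63 to 0.0929), Pcdha1 -20.5, Pcdha4 -18.5, Pcdhga10 -21.7, Pcdhga12 -12.4 and Pcdhgc3 -7.45. The count of CpGs called lower was 9 of 189 with more than 20 reads (4.76%, against 2.45% of the genome) and 0 of 558 with 11 reads drawn per CpG and library, where 0 CpGs of the genome were called and 27 protocadherin CpGs (4.84%, against 2.07% of the genome) were lower at an unadjusted p under 0.05. The number of calls therefore depends on depth. The other settings moved no call count by over 1.5 times. No CpG of the constant exons had more than 20 reads in both libraries. No paired analysis was possible because each genotype has 1 library.

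Few CpGs were read per exon, and 32 of 58 exons had any CpG shared by WT and Dnmt3a KO. Only 3 annotated promoters had any, all of them C-type, and they do not describe the others.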
